A study of Homo sapiens with 6 samples.

Results

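Of 111 protein-coding genes for potassium channels and voltage-gated sodium channels, 32 had at least 10 counts in at least 3 of 6 RNA sequencing libraries of H2452 cells, an established human pleural mesothelioma line. The genes were chosen by symbol from the 58735 genes of the count table, and the detected ones were selected on their counts in the 6 libraries. Among them, 97 had a symbol beginning with KCN, which covers potassium channel pores and their auxiliary subunits, and 14 were the SCN genes for pore (A) and beta (B) subunits of sodium channels. The share detected was 28.8% of the channel genes, against 61.0% of all 19951 protein-coding genes. The number detected is a description of measured counts and was not tested.

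The libraries were 3 of cells with a scrambled control guide (sgCtrl, labelled wild type) and 3 of cells with a guide against *NF2* (sg*NF2*-1, labelled knockout), which were all the libraries of the series. *NF2* encodes Merlin, a tumour suppressor that acts on the Hippo pathway. Both groups had been infected with a lentivirus carrying Cas9, the guide and mCherry, and were sorted for mCherry, so that the libraries came from sorted pools of 1 cell line with 1 guide against *NF2*. The cells of both groups grew in the same serum-containing medium with no further treatment, and the labels do not say whether replicates were separate cultures, so that p-values measure only the spread between these libraries.

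Total counts ranged from 14782423 to 17416463 per library. *NF2* had 1162, 1197 and 1025 counts in sgCtrl and 692, 802 and 590 in sg*NF2*-1. Its log2 fold change was -0.69 (SE, standard error, 0.10, edgeR adjusted p = 7.9e-06), so the transcript was lower but still present in cells labelled knockout. The study judged the knockout by western blot of the protein, which RNA counts do not measure. All 7 mesothelial markers examined passed the filter on low counts. Their summed level was 3199 to 3609 CPM (counts scaled to library depth) in sgCtrl and 2838 to 3487 in sg*NF2*-1, nearly all of it *KRT8*, *KRT18* and *KRT19*. *MSLN* rose and *WT1* and *KRT19* fell. Some markers of other cell types had 0 counts in all 6 libraries. These were *PTPRC* of blood cells, *SNAP25* and *STMN2* of neurons, and *MYH6*, *MYH7* and *TNNT2* of muscle. Others on the same lists had few counts, at most 2 in a library for *CD3E*, *HBB* and *DES*, 4 for *RBFOX3*, and 12 for *SYP* and *ACTC1*. The neuronal list of 5 summed to at most 1.38 CPM in sgCtrl and at most 2.11 in sg*NF2*-1, with *SYT1* higher, and the muscle list of 5 to 0.461 to 0.731 and 0.227 to 0.583. The blood list of 4 summed to 133 to 148 CPM in sgCtrl and 64.0 to 70.6 in sg*NF2*-1, nearly all of it *CD14*, and the endothelial list of 3 to 6.19 to 8.53 and 1.93 to 3.24, with *PECAM1* lower. The part of these markers in the channel results was not tested.

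Potassium channels let potassium leave the cell and so hold or restore a negative membrane potential, while voltage-gated sodium channels open on depolarisation and let sodium in. Both are best known from nerve, heart and muscle, but non-excitable and tumour cells also express some of them, where they bear on volume, migration and calcium entry. A channel is built from pore subunits, coded by most of the genes here, and is often joined by auxiliary subunits that change its gating or its transport to the membrane.

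The promoters of 4 genes whose transcripts changed are shown first, as the bases next to the start from which each gene is read. They are the largest changes in each direction (2 higher, 2 lower) among the 8 called channel genes listed in the RefSeq promoter table (GRCh38.p14). *KCNG1*, *KCNK15*, *KCNE4* and *KCNQ3* were not in that table. Each run is the 250 bases before the RefSeq start, 5′ to 3′ on the strand of the gene, with positions counted back from -1. Capitals mark matches, on both strands, to a TEAD motif (CATTCC or GGAATG, bound by the partners of YAP and TAZ) or a GC box (GGGCGG or CCGCCC, bound by SP factors).
*SCN9A*, higher in sg*NF2*-1, chr2:166375945-166376194, minus strand: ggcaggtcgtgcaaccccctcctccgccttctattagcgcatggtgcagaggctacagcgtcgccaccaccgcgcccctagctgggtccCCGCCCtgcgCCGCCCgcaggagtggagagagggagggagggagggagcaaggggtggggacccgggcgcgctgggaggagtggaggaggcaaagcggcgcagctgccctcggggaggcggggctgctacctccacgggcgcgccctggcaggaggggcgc
*KCNQ5*, higher in sg*NF2*-1, chr6:72621814-72622063, plus strand: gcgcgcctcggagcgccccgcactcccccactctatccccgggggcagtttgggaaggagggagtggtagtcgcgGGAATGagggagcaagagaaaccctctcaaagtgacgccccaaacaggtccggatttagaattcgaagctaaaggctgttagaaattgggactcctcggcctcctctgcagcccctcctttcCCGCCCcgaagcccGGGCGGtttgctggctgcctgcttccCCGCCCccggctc
*KCNK3*, lower in sg*NF2*-1, chr2:26692472-26692721, plus strand: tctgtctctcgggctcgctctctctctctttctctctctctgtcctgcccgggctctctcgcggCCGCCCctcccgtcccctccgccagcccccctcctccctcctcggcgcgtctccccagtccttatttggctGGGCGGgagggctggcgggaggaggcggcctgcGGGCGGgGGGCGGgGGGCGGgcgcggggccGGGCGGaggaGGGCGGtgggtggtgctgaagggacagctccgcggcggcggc
*KCNMA1*, lower in sg*NF2*-1, chr10:77637809-77638058, minus strand: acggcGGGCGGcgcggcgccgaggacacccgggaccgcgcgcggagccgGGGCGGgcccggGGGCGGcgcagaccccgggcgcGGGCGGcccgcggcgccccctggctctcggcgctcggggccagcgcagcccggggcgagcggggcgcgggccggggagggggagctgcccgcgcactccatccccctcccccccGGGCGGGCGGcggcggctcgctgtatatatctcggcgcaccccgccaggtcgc

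The GC box matches in *KCNMA1* at -53 to -48 and -49 to -44 overlap. The TEAD motif was found in *KCNQ5*, at -175 to -170, and in none of the other 7 called genes with a promoter. It lies in 11.9% of all 27305 promoters and in 10.1% of the protein-coding ones. The AP-1 motif (TGANTCA) and the ATF4 response element (TGATGNAA or TTNCATCA), which can share bases with an AP-1 match, were found in 0 of these 8 promoters. They lie in 6.60% and 3.19% of all promoters, and in 5.04% and 2.21% of the protein-coding ones. A GC box lay in all 8, in 9 of 15 promoters of detected genes that were not called, and in 56.0% of 15843 protein-coding promoters. These matches describe letters in a window before 1 start per gene. *KCNMA1* has 54 annotated transcript starts.

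The 32 detected genes were also the 32 that passed edgeR's expression filter and were tested in a fit over 14179 genes. A gene was called at a Benjamini-Hochberg adjusted p under 0.05 with a log2 fold change beyond 0.5. Of the 32, 7 were called higher in sg*NF2*-1 (among them *KCNK15*, *SCN9A*, *KCNG1*, *KCNQ5*, *KCNQ3* and *SCN8A*), 6 were called lower (*KCNE4*, *KCNK3*, *KCNMA1*, *KCNK1*, *KCND1* and *KCNN3*) and 19 were not called. Among all tested genes, 8.42% were called higher and 9.32% lower. The family was chosen with such results known, so these counts are given as a description. *KCNE4* and *KCNK1* passed the filter through sgCtrl alone and *KCNK15* through sg*NF2*-1 alone. Genes that reach 10 counts in only 1 group are likely to differ between the groups, so these 3 calls are not independent of the filter. Among the 23 channel genes with at least 10 counts in all 6 libraries, 5 were called higher and 3 lower, against 8.55% and 9.11% of all such genes. The median log2 fold change was -0.06 over the 32 and -0.00 over all tested genes. The groups did not overlap for 19 of the 32, including all 13 called, against 45.3% of all tested genes. For each of these, the two-sided exact permutation test gave p = 0.10, the smallest that 3 libraries against 3 allow. In bulk RNA, fewer cells with a transcript and less of it per cell cannot be told apart.

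**Figure D1:**
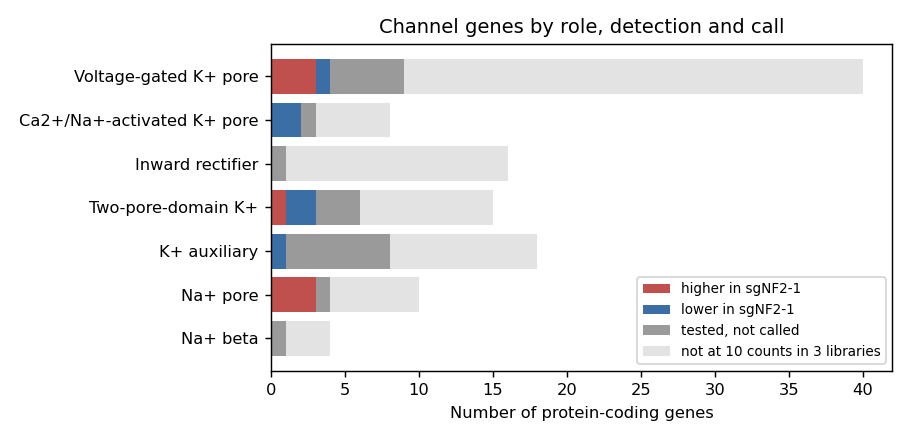
The bars give the number of protein-coding genes in each role group, split into genes called higher or lower in sg*NF2*-1, tested but not called, and without 10 counts in 3 libraries. Most voltage-gated potassium and inward rectifier genes were not detected, and 3 of the 4 detected sodium pore genes were called higher (8.42% of all tested genes), of which *SCN8A* lies at the fold limit.

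Of the 79 channel genes not detected, 12 reached 10 counts in 1 or 2 libraries, 37 had at least 1 count but never 10, and 30 had 0 counts in every library. On the inner side of the limit, *KCNK2* had 5, 16 and 21 counts in sgCtrl and 2, 2 and 12 in sg*NF2*-1. Just outside it, the third highest count was 9 in *KCNE5* and *SCN3A*, and *KCNE5* had 6, 12 and 10 counts in sgCtrl and 9, 5 and 3 in sg*NF2*-1. The genes outside the limit were not tested.

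Of 10 sodium channel pore genes, 4 were detected and 3 of them rose, beside 8.42% called higher of all tested genes. *SCN9A* (chr2:166195185-166376001), known from pain-sensing neurons, had 119, 143 and 95 counts in sgCtrl and 754, 570 and 473 in sg*NF2*-1. No library came between the groups. From 7.51 ± 1.23 to 37.7 ± 4.86 CPM, it rose by 2.32 on the log2 scale (SE 0.14, edgeR adjusted p = 3.1e-12), a 5.01-fold difference.

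*SCN8A* (chr12:51590266-51812864), a channel of central and peripheral neurons, had 281, 359 and 270 counts in sgCtrl and 526, 419 and 347 in sg*NF2*-1. As CPM, all 3 sg*NF2*-1 libraries were above all 3 sgCtrl libraries, at 27.1 ± 2.76 against 19.2 ± 2.35 (SD, n = 3 each). Its log2 fold change of 0.50 (SE 0.12, edgeR adjusted p = 0.0021) lay at the fold limit. The value ranged from 0.43 to 0.61 over the alternative fits, with adjusted p-values of at most 0.025, and DESeq2, DESeq2's size factors and library totals each took it below the limit, as did a filter of 10 counts in every library and leaving out sgCtrl replicate 1, sgCtrl replicate 3 or sg*NF2*-1 replicate 1. *SCN2A*, a detected pore gene chosen after its values were seen, had 17, 24 and 20 counts in sgCtrl and 13, 10 and 7 in sg*NF2*-1. Its log2 fold change was -1.02 (SE 0.42) with an adjusted p of 0.060 (edgeR), so it was not called.

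*SCN9A* lies on chromosome 2 in a run of 5 sodium channel pore genes (165087522 to 166494326) that also holds *SCN2A*, *SCN3A*, *SCN1A* and *SCN7A*. Of the neighbours only *SCN2A* was tested, and it was not called. *SCN3A* had 3, 15 and 11 counts in sgCtrl and 9, 7 and 2 in sg*NF2*-1, *SCN1A* had 1 count in all, and *SCN7A* had 0 counts in sgCtrl and 1, 2 and 3 in sg*NF2*-1.

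Levels of the genes were compared per length, as FPKM (fragments scaled to gene length and library depth). *SCN9A* was at 0.521, 0.602 and 0.431 FPKM in the sgCtrl libraries and at 2.93, 2.53 and 2.27 in sg*NF2*-1. *SCN8A* was at 1.13, 1.39 and 1.13 FPKM in sgCtrl and at 1.88, 1.71 and 1.53 in sg*NF2*-1. The level of *SCN8A* was the higher in every sgCtrl library and that of *SCN9A* in every sg*NF2*-1 library.

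**Figure D2:**
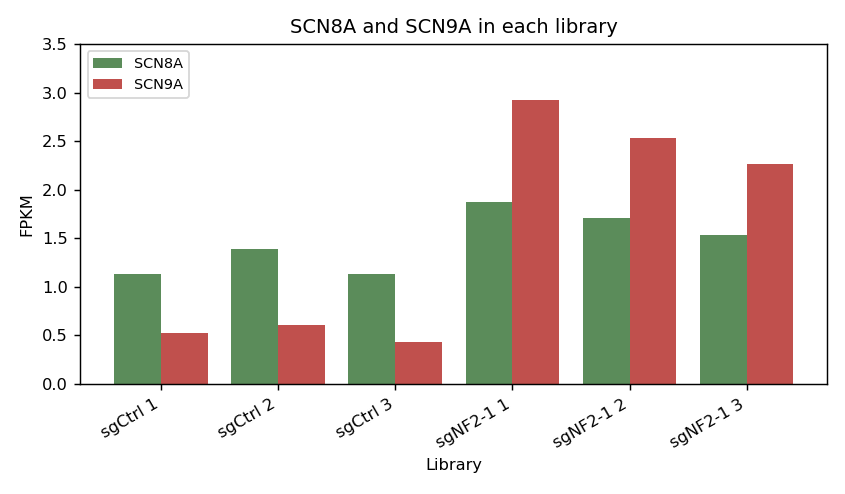
Bars give the FPKM of *SCN8A* (green) and *SCN9A* (red) in each library. The *SCN9A* bar is taller than the *SCN8A* bar only in the 3 sg*NF2*-1 libraries.

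Voltage-gated potassium pores, the largest group with 40 genes, had 9 detected, of which 3 rose and 1 fell. Of all tested genes, 8.42% were called higher and 9.32% lower. *KCNG1* (chr20:51003656-51023129) codes for a silent subunit, one that forms no channel alone and modifies pores of the KCNB family. It had 124, 114 and 110 counts in sgCtrl and 579, 426 and 510 in sg*NF2*-1. All sg*NF2*-1 libraries were far above all sgCtrl libraries, from 1.28 ± 0.0813 to 5.54 ± 0.706 FPKM (SD, n = 3 each) and with a log2 fold change of 2.12 (SE 0.13, edgeR adjusted p = 9.1e-12). It made up 25.3% of the FPKM of voltage-gated potassium pores in sgCtrl and 59.0% in sg*NF2*-1. *KCNS3*, another silent subunit that joins KCNB pores, was at 0.748 ± 0.0660 and 0.485 ± 0.0729 FPKM and was not called (log2 difference -0.61, SE 0.31, edgeR adjusted p = 0.12).

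The KCNQ family carries the slow M-type current of neurons. *KCNQ5* (chr6:72621792-73198851), whose promoter is printed above, had 34, 25 and 36 counts in sgCtrl and 110, 104 and 81 in sg*NF2*-1, which do not overlap. It rose by 1.63 on the log2 scale (SE 0.23, edgeR adjusted p = 5.9e-06). *KCNQ3* (chr8:132120858-132481019), a subunit that can join *KCNQ5* in 1 channel, had 17, 53 and 21 counts in sgCtrl and 75, 57 and 52 in sg*NF2*-1. One sgCtrl library was close to the sg*NF2*-1 libraries and the other 2 were well below them. *KCNQ3* was called higher at a log2 fold change of 1.02 (SE 0.31, edgeR adjusted p = 0.013). The call was lost without sgCtrl replicate 1 (0.74, adjusted p = 0.076), without sgCtrl replicate 3 (0.84, adjusted p = 0.057) and without sg*NF2*-1 replicate 1 (0.94, adjusted p = 0.060), and the value was 1.65 without sgCtrl replicate 2.

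*KCND1* (chrX:48961378-48971569), a pore of the fast-inactivating A-type current, was the voltage-gated gene that fell, with 84, 83 and 82 counts in sgCtrl and 44, 43 and 47 in sg*NF2*-1. The replicates of each group were within a few counts of each other. Its log2 fold change was -0.88 (SE 0.22, edgeR adjusted p = 0.0029). Summed over the 40 genes, voltage-gated potassium pores were at 5.07 ± 0.0550 FPKM in sgCtrl and 9.37 ± 0.805 in sg*NF2*-1 (SD, n = 3 each). *KCNG1* alone was at 1.28 and 5.54 FPKM, so nearly all of the rise in the sum was that of *KCNG1*.

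**Figure D3:**
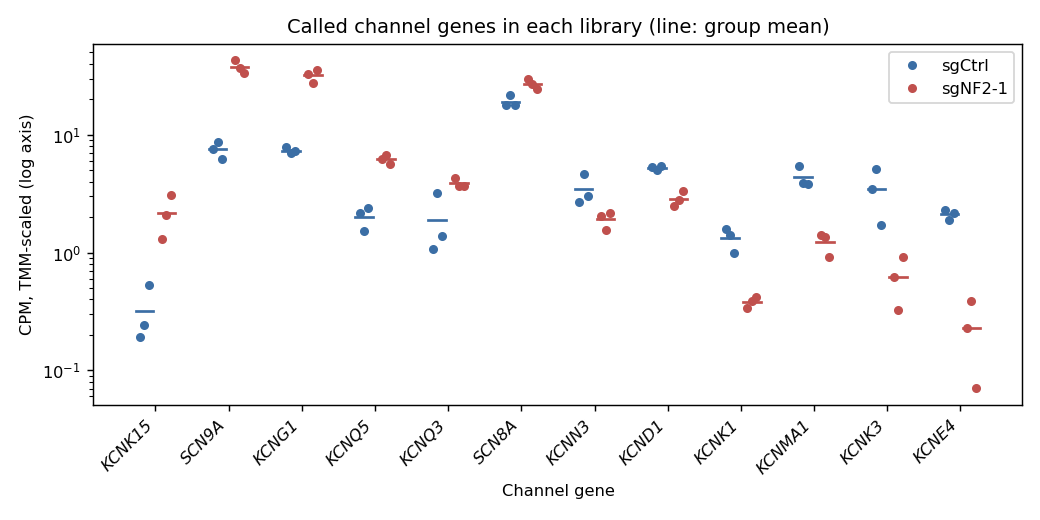
Points give CPM on a log axis in each library for 12 called genes, with sgCtrl in blue, sg*NF2*-1 in red and a line at each group mean. No gene has a red point within the range of its blue points, and the gap is narrow in *KCNQ3* and *SCN8A*.

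The family of channels opened by calcium or sodium inside the cell, counted with their pH-sensitive relative *KCNU1*, had 3 of 8 genes detected, of which 2 fell. The share called lower over all tested genes was 9.32%. *KCNMA1* (chr10:76869601-77638369), the pore of the large-conductance BK channel, had 86, 64 and 58 counts in sgCtrl and 25, 21 and 13 in sg*NF2*-1. With no overlap between the groups, it fell by 1.82 on the log2 scale (SE 0.29, edgeR adjusted p = 2.1e-05). *KCNMB4*, a beta subunit of the same channel and chosen after its values were seen, had 24, 25 and 23 counts in sgCtrl and 10, 15 and 14 in sg*NF2*-1, and at an adjusted p of 0.085 (edgeR) was not called (log2 difference -0.86, SE 0.39), although it was called lower with a filter of 10 counts in every library and with an unadjusted p. *KCNMB3*, chosen likewise, was at 1.37 ± 0.299 and 1.36 ± 0.153 CPM. *KCNN3* (chr1:154697455-154870280), a small-conductance SK channel, had 42, 77 and 46 counts in sgCtrl and 36, 24 and 31 in sg*NF2*-1. One sgCtrl library was high, and the gap between the groups was narrow. The log2 fold change was -0.85 (SE 0.29, edgeR adjusted p = 0.024), and the call was lost without sgCtrl replicate 2 (-0.56, adjusted p = 0.22) and without sg*NF2*-1 replicate 2 (-0.72, adjusted p = 0.090).

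KCNK channels carry the background leak of potassium, and each subunit holds a pair of pore loops. Of 15 genes, 6 were detected, of which 1 rose and 2 fell, beside 8.42% and 9.32% of all tested genes. *KCNK5*, an acid-sensitive leak channel, was the most abundant, with 73.5% of the FPKM of this group in sgCtrl and 71.0% in sg*NF2*-1. It had 293, 364 and 253 counts in sgCtrl and 270, 243 and 280 in sg*NF2*-1, which overlap, and a log2 difference of -0.18 (SE 0.13, edgeR adjusted p = 0.31). The genes that changed were less abundant. *KCNK15* (chr20:44745780-44752313), a relative of *KCNK3* with little known activity of its own, had 3, 4 and 8 counts in sgCtrl and 23, 32 and 44 in sg*NF2*-1. Its log2 fold change was 2.72 (SE 0.48, edgeR adjusted p = 8.8e-05), from an sgCtrl level near the floor. *KCNK3* (chr2:26692690-26733420), the acid-sensitive channel TASK-1, had 55, 84 and 26 counts in sgCtrl and 11, 5 and 13 in sg*NF2*-1. The sgCtrl libraries were spread widely, and the lowest of them was above all sg*NF2*-1 libraries. It fell by 2.47 on the log2 scale (SE 0.42, edgeR adjusted p = 5.1e-05). *KCNK1* (chr1:233614004-233672512), the weakly rectifying TWIK-1, had 25, 23 and 15 counts in sgCtrl and 6 in each sg*NF2*-1 library. Its log2 fold change was -1.78 (SE 0.46, edgeR adjusted p = 0.0036).

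Inward rectifiers, which pass potassium inward more easily than outward, were mostly not detected. Of 16 KCNJ genes, only *KCNJ14* was detected, with 67, 38 and 35 counts in sgCtrl and 60, 35 and 36 in sg*NF2*-1. Its groups overlapped, at a log2 difference of -0.10 (SE 0.29, edgeR adjusted p = 0.82) that turned positive without sgCtrl replicate 1 (0.25, adjusted p = 0.60) or without sg*NF2*-1 replicate 2 (0.01, adjusted p = 0.98).

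Auxiliary subunits and regulators of potassium channels numbered 18, with 8 detected and 1 that fell, beside 9.32% called lower of all tested genes. *KCNAB2* (chr1:5991466-6101193), a beta subunit of the KCNA pores with an oxidoreductase fold, was by FPKM the most abundant of all 111 genes. The KCNA pore genes themselves had at most 2 counts in any library. *KCNAB2* had 4299, 4172 and 3359 counts in sgCtrl and 3084, 2646 and 2802 in sg*NF2*-1. No sg*NF2*-1 library reached the lowest sgCtrl library, at 24.8 ± 2.61 against 17.8 ± 1.31 FPKM (SD, n = 3 each). Its log2 difference of -0.46 (SE 0.09, edgeR adjusted p = 0.00021) passed the p but not the fold limit, and it passed both without sgCtrl replicate 3 or without sg*NF2*-1 replicate 3. *KCNIP3*, a calcium-binding partner of KCND pores, was at 1.13 ± 0.115 and 1.22 ± 0.138 FPKM (log2 difference 0.12, SE 0.15, edgeR adjusted p = 0.57).

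*KCNE4* (chr2:223051814-223198399), a single-pass subunit that inhibits several voltage-gated potassium channels, fell by more than any other channel gene that was called. It had 36, 31 and 33 counts in sgCtrl and 4, 6 and 1 in sg*NF2*-1. The sgCtrl libraries were close together and all sg*NF2*-1 libraries were near the floor. The log2 fold change was -3.14 (SE 0.48, edgeR adjusted p = 1.3e-05), with a range of -3.69 to -2.77 over the fits to 5 libraries.

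**Figure D4:**
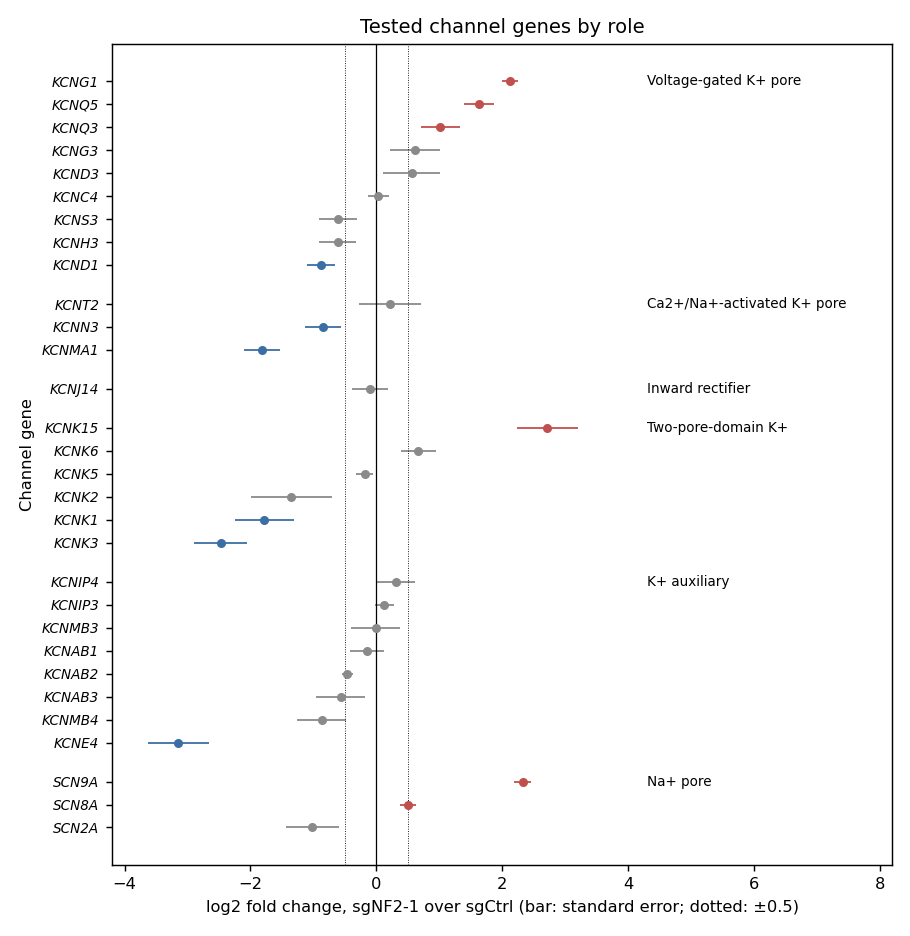
Points give the edgeR log2 fold change of sg*NF2*-1 over sgCtrl for 30 tested genes by role, with bars of 1 standard error and dotted lines at the fold limit of 0.5. Red genes were called higher, blue genes lower and grey genes were not called, and each of the sodium pore, voltage-gated and leak groups has points on both sides of 0.

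Set on 1 scale, the summed FPKM of the 111 genes was 50.8 ± 3.83 in sgCtrl and 49.7 ± 2.62 in sg*NF2*-1 (SD, n = 3 each). Auxiliary subunits, mostly *KCNAB2*, made up the largest part, at 29.1 ± 2.77 and 21.4 ± 1.33. Sodium channel pores were at 1.89 ± 0.280 and 4.92 ± 0.557, and voltage-gated potassium pores are given above. The leak channels were at 6.57 ± 0.984 and 5.99 ± 1.11, calcium- or sodium-activated pores at 0.764 ± 0.158 and 0.460 ± 0.0349, and inward rectifiers at 0.852 ± 0.322 and 0.917 ± 0.0919. Over all 6 libraries, 7 genes had a mean of at least 1 FPKM. Among these, the order from the highest mean was *KCNAB2*, *KCNK5*, *KCNG1*, *SCN9A*, *SCN8A* and *KCNIP3*.

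Of 20 partners and regulators of these channels, 9 were tested, of which 2 rose and 2 fell, beside 8.42% called higher and 9.32% called lower of all tested genes, with a median log2 fold change of -0.09. *ANK2*, an ankyrin that links membrane channels and pumps to the cytoskeleton, had 5.83 ± 1.41 CPM in sgCtrl and 18.3 ± 0.784 in sg*NF2*-1 (SD, n = 3 each) and rose by 1.65 on the log2 scale (SE 0.16, edgeR adjusted p = 1.2e-08). *NEDD4L*, a ubiquitin ligase that removes sodium channels from the membrane, rose from 85.3 ± 2.59 to 138 ± 13.9 CPM (log2 fold change 0.69, SE 0.09, edgeR adjusted p = 8.4e-07). *CALM3*, a calmodulin gene whose product is a calcium sensor on several channels, fell by 0.56 on the log2 scale (SE 0.08, edgeR adjusted p = 5.5e-06). *REST*, the repressor of many neuronal genes including sodium channels, was at 23.9 ± 1.42 and 23.8 ± 3.34 CPM. The other 11, among them the sodium channel anchor *ANK3*, were under 10 counts in every library.

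Of 20 genes for the sodium pump and the cation-chloride cotransporters, which build and use the gradients these channels run on, 8 were tested, of which 1 rose and 2 fell (median log2 fold change -0.07). Over all tested genes, 8.42% were called higher and 9.32% lower. *SLC12A7*, a potassium-chloride cotransporter, rose by 0.73 on the log2 scale (SE 0.08, edgeR adjusted p = 2.1e-07). *ATP1B1*, the beta subunit of the pump, fell from 218 ± 6.94 to 121 ± 2.07 CPM (SD, n = 3 each; log2 fold change -0.84, SE 0.08, edgeR adjusted p = 7.8e-09).

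Whether reads were counted by strand is not stated, so reads of overlapping genes cannot be told apart. Of the 13 called genes, 7 overlap another annotated gene, and in 2 cases the other gene reached 10 counts. The pseudogene *HNRNPA3P10* within *SCN8A* had 6 to 10 counts in sgCtrl and 3 to 9 in sg*NF2*-1, and the noncoding *FO393414.3* at *KCNQ5* had 3 to 17 and 1 to 6. In sgCtrl replicate 2 the latter had 17 counts beside 25 of *KCNQ5*. Some genes that were not called overlap more abundant ones. *KCNJ14* overlaps *GRWD1* on the same strand, which had 637 to 705 counts in sgCtrl and 889 to 1113 in sg*NF2*-1, and *SCN2A* overlaps *AC019197.1* on the same strand, which had 16 to 31 and 11 to 14. *KCNAB2* and *KCNMB3* each overlap a protein-coding gene on the opposite strand with over 10 counts in every library.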

How the data were processed

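Total RNA of 3 sgCtrl and 3 sg*NF2*-1 replicates of H2452 cells was sequenced as paired-end reads. Sample titles gave the group and the replicate number. The submitters' processing notes name HISAT2, StringTie 1.3.3b, featureCounts 1.5.0-p3 and hg38, with no strand setting given in the sources used here. What the authors deposited were unnormalized read counts of each gene and FPKM values made from those counts. The members and lists were chosen with earlier results of these data known. All 111 genes have the same start and end in GENCODE release 29 (GRCh38).

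The filter on low counts was filterByExpr of edgeR (minimum count 10). Counts were then normalized by TMM and fitted with edgeR's quasi-likelihood model of the group (edgeR 4.0.16, R 4.3.3) over all 14179 genes that passed, with Benjamini-Hochberg adjustment. CPM uses the TMM-scaled total of these genes. FPKM was used for levels between genes and, with limma 3.58.1 on log2(FPKM + 1), as an alternative. DESeq2 1.42.0, other scalings, filters and thresholds, a replicate block and leaving out each library were the other alternatives. No library pair agreed within counting noise. Named genes are those called, the 10 of highest FPKM, those next to the detection limit (2 on each side, with ties) and *NF2*. Partners and cotransporters are given when called. Other genes named with values, such as *REST*, *ANK3*, *ABCC8*, *ABCC9*, *SCN1A*, *SCN7A*, *SCN2A*, *KCNMB3* and *KCNMB4*, were picked with their values in view. Promoters came from RefSeq (GRCh38.p14), with 81 of 111 members matched by symbol. A few genes that the naming rule takes in are left unreported.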

Additional observations from a re-analysis of the deposited data

How the results depend on the processing

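With 7 channel genes called higher and 6 lower, the same 13 genes were called with a replicate block (7 and 6). Replicate numbers did not pair the libraries, since the same-number deviations correlated at -0.04, 0.07 and 0.06. With at least 10 counts in every library, 23 channel genes were tested and 4 were called higher. With an unadjusted p, 10 were called lower. With limma on FPKM, 11 passed the filter of 0.5 FPKM, and 3 were called higher and 0 lower with a pseudocount of 1, and 3 and 1 with 0.1. With no FPKM filter, 81 were tested and 0 were called lower. The filters on every library and on FPKM left fewer genes to test. For the other shifts the cause was not tested. Without 1 of the libraries, whichever it was, 5 to 8 were called higher, 5 to 8 lower, and 29 to 31 were detected. The shares of all genes called under these alternative settings were not counted, so the channel counts were not set against them. A minimum of 5 or 20 counts gave 46 or 27 detected. *KCNJ14* turned to 0.25 without sgCtrl replicate 1 and to 0.01 without sg*NF2*-1 replicate 2, within a range of -0.30 to 0.25 over the fits to 5 libraries. Every called gene other than *SCN8A*, *KCNQ3* and *KCNN3* kept its call with DESeq2, with both other scalings and without each library. Genes with under 10 counts are limited by depth.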

Other observations

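With no filter on low counts, 81 channel genes were tested among 28366 genes, and 3 further channel genes passed the same thresholds. None of the 3 was detected by the limit of 10 counts in 3 libraries, and all were chosen after their values were seen. The share of all genes called in that fit was not counted. *KCNN4*, the intermediate-conductance calcium-activated potassium channel, had 15, 12 and 6 counts in sgCtrl and 0, 1 and 0 in sg*NF2*-1. Relative to library totals, its summed count was 33.5-fold higher in sgCtrl, with an exact 95% interval of 5.61 to 1364 that covers counting error only. *KCNJ11*, a pore of the ATP-sensitive potassium channel, had 4, 1 and 1 counts in sgCtrl and 11, 18 and 6 in sg*NF2*-1. Of the regulatory subunits of that channel, *ABCC8* had 0 counts in every library and *ABCC9* had 11, 11 and 11 counts in sgCtrl and 7, 11 and 8 in sg*NF2*-1. *KCNU1*, a pH-sensitive channel known from sperm, had 3, 0 and 2 counts in sgCtrl and 9, 7 and 11 in sg*NF2*-1.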
